A study of Mus musculus with 18 samples.

Results

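The thyroid hormone deiodinases are the genes Dio1, Dio2 and Dio3, chosen by name as 3 of the 23 selenoprotein genes whose mRNA and ribosome footprints were quantified in mouse liver. The livers came from male mice of 5 to 8 weeks in 4 groups: Secisbp2 knockout (genotype Alb-Cre; Secisbp2fl/fl), their Secisbp2 wild type littermates, Trsp knockout (genotype Alb-Cre; Trspfl/fl) and their Trsp wild type littermates. Alb-Cre is a Cre recombinase under the albumin promoter, which is active in hepatocytes. Which other cells of the liver kept their Secisbp2 or Trsp was not measured here. The wild type groups are labelled by colony and as wild type only, and the sources used here do not say whether they carry Alb-Cre. The Secisbp2 product binds the SECIS hairpin in the mRNAs of selenoproteins, and Trsp is the gene of the selenocysteine transfer RNA. Each assay had 9 libraries, 2 of Secisbp2 knockout, 2 of Secisbp2 wild type, 2 of Trsp knockout and 3 of Trsp wild type.

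Deiodinases remove iodine atoms from thyroid hormones and so set how much active hormone a tissue holds. DIO1, the enzyme of liver, kidney and thyroid, sits in the plasma membrane and removes iodine from either ring of the hormone. DIO2, of the endoplasmic reticulum, makes the active hormone triiodothyronine from thyroxine in brain, pituitary and brown fat, and DIO3, abundant in placenta and fetal tissues, inactivates both hormones. All of them have a selenocysteine in the active site, encoded by a UGA codon that would otherwise stop translation. Ribosomes that read the UGA as selenocysteine go on to the part of the coding sequence 3' of it, so footprint density 3' of the UGA relative to that 5' of it serves as a measure of UGA redefinition.

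The tables hold RPKM, read counts scaled to the length of the counted window and to the library's total, for selenoprotein genes alone. The reads behind the RPKM could be recovered as whole numbers, and the libraries had been scaled to totals of 5065579 to 20645294 reads for footprints and 6522357 to 36510084 reads for RNA-seq. The recovered Dio1 windows were 345 nt long 5' of the UGA, 380 nt 3' of it and 1682 nt for mRNA. None of the 17 cell type marker genes looked for (0 in the tables), nor Secisbp2 or Trsp, is among the genes, so hepatocyte identity and loss of the targeted genes were not analysed here. The labels' library codes fall into 3 sets, with Secisbp2 knockout, Secisbp2 wild type and all Trsp libraries in a set each. The effect of Secisbp2 genotype and that of the set cannot be told apart, nor can those of colony and set. In bulk liver, fewer cells of a type and less RNA per cell cannot be told apart either.

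The promoters of the deiodinase genes are shown because mRNA is the measure with values above 0 for all 3 genes, and their levels lay far apart. They are the 200 bases before the transcript start in the RefSeq promoter table of build GRCm38.p6, whereas the submitters' processing notes name mm9 for the reads. The Dio1 stretch is chr4:107307169-107307368 on the minus strand, that of Dio2 is chr12:90739039-90739238 on the minus strand, and that of Dio3 is chr12:110279030-110279229 on the plus strand. Capitals mark matches, on either strand, to the TATA box TATAAA, the cAMP response element TGACGTCA, the GC box GGGCGG and the thyroid hormone receptor half-site AGGTCA.
Dio1: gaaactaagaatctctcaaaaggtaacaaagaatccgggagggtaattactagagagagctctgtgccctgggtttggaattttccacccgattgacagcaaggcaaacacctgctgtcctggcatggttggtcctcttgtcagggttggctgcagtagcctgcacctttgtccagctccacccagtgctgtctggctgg
Dio2: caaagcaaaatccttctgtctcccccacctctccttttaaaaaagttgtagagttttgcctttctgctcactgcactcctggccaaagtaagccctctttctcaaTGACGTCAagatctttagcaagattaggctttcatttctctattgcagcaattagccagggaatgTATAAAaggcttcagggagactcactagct
Dio3: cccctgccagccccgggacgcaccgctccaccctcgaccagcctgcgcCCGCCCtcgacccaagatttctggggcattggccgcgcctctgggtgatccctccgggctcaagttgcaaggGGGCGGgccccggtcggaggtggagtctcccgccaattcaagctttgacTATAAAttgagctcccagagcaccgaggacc
In Dio2 a TATA box lay 30 to 25 bases before the start and a cAMP response element 95 to 88 bases before it. In Dio3 a TATA box lay 31 to 26 bases before the start, with GC boxes at 152 to 147 and 80 to 75 bases before it. Dio1 had 0 matches to these motifs in this window, and no gene of the 3 had the half-site. Over 32851 promoters of the same length, 9.96% held TATAAA, 1.47% held TGACGTCA, 31.0% held GGGCGG and 11.4% held AGGTCA. The Dio3 stretch was 67% G or C with 15 CG pairs, that of Dio2 43% with 1 and that of Dio1 52% with 2. The medians over all promoters were 53% and 5 CG pairs. Whether these sequences bear on the mRNA levels was not tested.

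Dio1 was the deiodinase whose values carried the comparisons. In livers without Secisbp2, Dio1 mRNA fell to 16.8% of the wild type mean, the ribosomes 5' of its UGA to 8.95% and those 3' of it to 14.3%. In livers without Trsp, Dio1 mRNA fell to 44.2%, ribosomes 5' of the UGA to 49.7% and ribosomes 3' of it to 10.3%. Loss of Secisbp2 thus went with less Dio1 mRNA and fewer ribosomes on all of it, while in Trsp knockout livers the deepest loss was of ribosomes past the UGA. That loss was not particular to Dio1. Without Trsp 83.3% of the 12 genes tested were called lower 3' of the UGA, with a median log2 change of -3.18 against -2.99 for Dio1. The Trsp knockout value of Dio1 there rests on 11 reads.

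**Figure D1:**
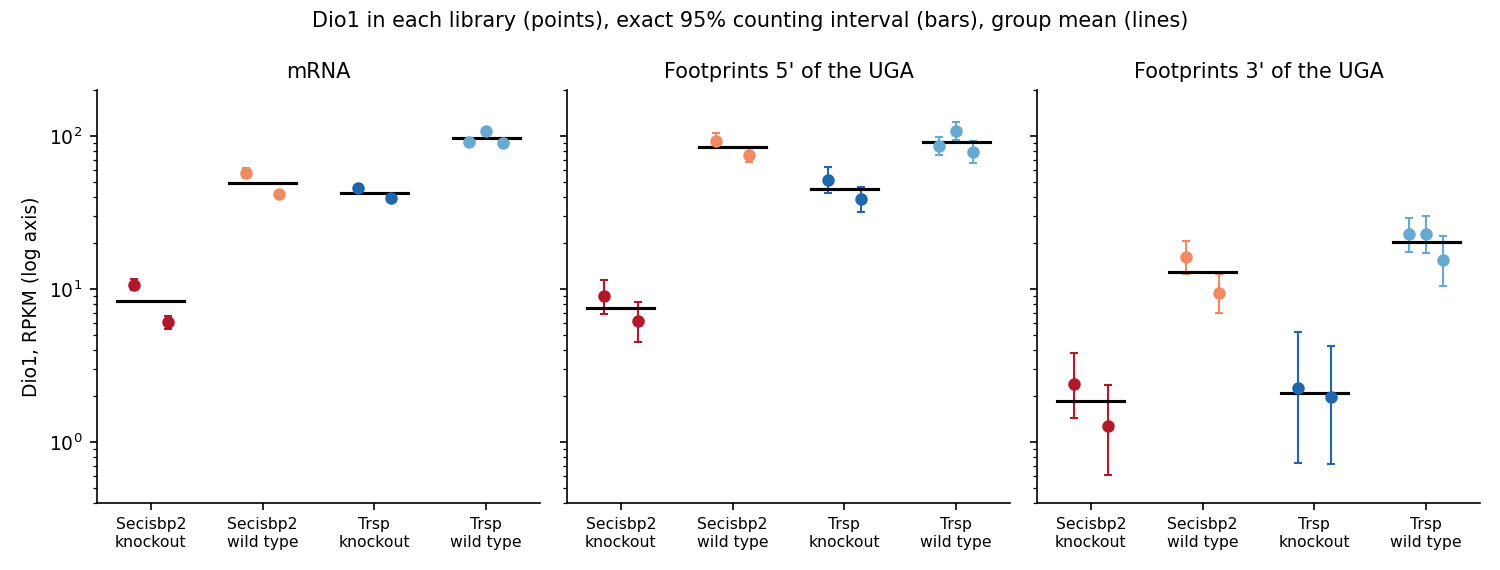
Dio1 RPKM on a log axis in each library (points) for mRNA, footprints 5' of the UGA and footprints 3' of the UGA, with the exact 95% Poisson interval of the reads (bars) and the group mean (lines). Secisbp2 knockout libraries are the lowest for mRNA and 5' footprints, at 6.06 to 10.7 and 6.18 to 9.0 RPKM, while for 3' footprints both knockouts lie between 1.27 and 2.41 RPKM.

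Dio1 mRNA was at 10.7 and 6.06 RPKM in Secisbp2 knockout livers, from 632 and 372 reads, and at 57.9 and 42.0 RPKM in Secisbp2 wild type livers, from 635 and 1819 reads. The groups did not overlap, and the knockout mean was 8.39 ± 3.29 RPKM against 50.0 ± 11.2 RPKM in wild type livers (SD, n = 2 each). On the log2(RPKM + 0.5) scale Dio1 mRNA fell by 2.54 (SE 0.25, limma, Benjamini-Hochberg adjusted p = 2.26e-05 over the 20 genes tested). Dio1 was the single deiodinase with a mean of at least 1 RPKM and so the only one tested. It was among the 50% of genes called lower in this comparison, and its change was the lowest but for that of Gpx1, against a median of -0.39 over all 20 genes.

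In Trsp knockout livers Dio1 mRNA was at 46.2 and 39.7 RPKM, from 2446 and 1331 reads, and in Trsp wild type livers at 91.9, 109 and 91.0 RPKM, from 3056, 4123 and 3496 reads. The means were 42.9 ± 4.62 RPKM in knockout livers (SD, n = 2) and 97.2 ± 10.02 RPKM in wild type livers (SD, n = 3), with no overlap. The fall was 1.17 in log2 units (SE 0.23, limma adjusted p = 0.00124), where 70% of the 20 genes were called lower and the median was -0.66. Dio1 stood in place 5 of 20 from the lowest. The fall was not called when all libraries were brought to the same median log2 ratio over the selenoproteins (-0.61, adjusted p = 0.0694), nor against the Secisbp2 wild type (-0.20, adjusted p = 0.519) or both wild types pooled (-0.78, adjusted p = 0.121).

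Dio1 mRNA fell further without Secisbp2 than without Trsp. The difference of the knockout effects was -1.37 in log2 units (SE 0.34, limma adjusted p = 0.00656), in a comparison where 70% of the 20 genes were called in either direction. The wild type groups of the colonies also differed, with 50.0 RPKM in Secisbp2 wild type and 97.2 RPKM in Trsp wild type livers (-0.97, SE 0.23, limma adjusted p = 0.00625), as did 45% of the genes tested. From the highest, the order of Dio1 mRNA levels was Trsp wild type, Secisbp2 wild type, Trsp knockout and Secisbp2 knockout. The middle groups overlapped, at 42.0 to 57.9 RPKM in Secisbp2 wild type and 39.7 to 46.2 RPKM in Trsp knockout livers, and the other neighbours in this order did not.

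Among the 23 genes of the RNA table Dio1 ranked 7 to 8 in the Trsp wild type libraries and 8 in the Trsp knockout libraries. It ranked 15 in both Secisbp2 knockout libraries, against 8 to 10 in Secisbp2 wild type. Its share of the summed selenoprotein RPKM was 0.437% to 0.663% in Secisbp2 knockout libraries and 0.770% to 1.12% in Secisbp2 wild type, but 1.82% to 2.05% in Trsp knockout and 1.45% to 1.95% in Trsp wild type libraries. Within the selenoprotein mRNAs Dio1 thus lost share in the Secisbp2 knockout libraries, while the shares of the Trsp groups overlapped.

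Ribosomes 5' of the UGA show how much Dio1 mRNA was being translated up to the selenocysteine codon. Their density was 9.0 and 6.18 RPKM in Secisbp2 knockout livers, from 61 and 44 reads, and 94.0 and 75.7 RPKM in Secisbp2 wild type livers, from 330 and 356 reads. The groups lay far apart, with means of 7.59 ± 2.0 RPKM and 84.8 ± 12.9 RPKM (SD, n = 2 each). The fall of 3.41 in log2 units (SE 0.28, limma adjusted p = 6.15e-05) was the largest but for that of Gpx1 among 20 genes, of which 45% were called lower and whose median was -0.96.

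In Trsp knockout livers Dio1 had 52.1 and 38.9 RPKM 5' of the UGA, from 105 and 108 reads, against 86.4, 109 and 79.5 RPKM in Trsp wild type livers, from 216, 223 and 139 reads. The groups did not overlap, and the means were 45.5 ± 9.34 RPKM (SD, n = 2) and 91.5 ± 15.2 RPKM (SD, n = 3). The fall was 1.00 in log2 units (SE 0.26, limma adjusted p = 0.0125), with 55% of genes called lower and a median of -0.79. It was not called without Trsp knockout replicate 2 (-0.80, adjusted p = 0.0858) or with the libraries at the same median (-0.30, adjusted p = 0.341).

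The knockout effects on Dio1 footprints 5' of the UGA differed by -2.41 (SE 0.38, limma adjusted p = 0.00164), where 55% of genes were called in either direction. Between the wild type groups the difference was -0.10 (95% interval -0.70 to 0.49, limma adjusted p = 0.732), where 15% of genes were called. Trsp wild type and Secisbp2 wild type overlapped at the top of the order, followed by Trsp knockout and then Secisbp2 knockout, each below its neighbour in every library.

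Past the UGA the levels of the knockouts overlapped. Dio1 had 2.41 and 1.27 RPKM 3' of the UGA in Secisbp2 knockout livers, from 18 and 10 reads, against 16.3 and 9.46 RPKM in Secisbp2 wild type livers, from 63 and 49 reads. It had 2.25 and 1.96 RPKM in Trsp knockout livers, from 5 and 6 reads, against 22.9, 23.0 and 15.6 RPKM in Trsp wild type livers, from 63, 52 and 30 reads. Each knockout lay below both wild type groups in every library, while the knockouts overlapped with each other and so did the wild types. At so few reads counting error alone is wide, and the exact 95% Poisson interval for the Trsp knockout libraries ran from 0.731 to 5.25 RPKM and from 0.719 to 4.27 RPKM.

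The density 3' of the UGA fell by 2.51 in Secisbp2 knockout livers (SE 0.39, limma adjusted p = 0.000131) and by 2.99 in Trsp knockout livers (SE 0.36, limma adjusted p = 1.24e-05). Of the 12 genes tested, 75% were called lower in the Secisbp2 comparison and 83.3% in the Trsp comparison, with medians of -2.29 and -3.18. Dio1 lay in the middle of these genes, in place 6 of 12 from the lowest without Secisbp2 and 7 of 12 without Trsp. The knockout effects differed by 0.48 (95% interval -0.69 to 1.66, limma adjusted p = 0.460), where 25% of genes were called, an interval that also holds differences of more than 1 log2 unit. Between the wild types the difference was -0.68 (SE 0.36, limma adjusted p = 0.259), with 25% of genes called. With all libraries at the same median, neither fall was called (-0.28, adjusted p = 0.328 for Secisbp2 and -0.01, adjusted p = 0.966 for Trsp).

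The density past the UGA as a percent of that before it was lowest in Trsp knockout livers. It was 26.8% and 20.6% in Secisbp2 knockout libraries, against 17.3% and 12.5% in Secisbp2 wild type libraries. It was 4.32% and 5.04% in Trsp knockout libraries, against 26.5%, 21.2% and 19.6% in Trsp wild type libraries. Thus the Trsp knockout libraries lay below all others and the Secisbp2 knockout libraries did not lie below their wild types. Exact 95% Clopper-Pearson intervals of the read shares, carried over to the ratio, were 14.9% to 45.9% and 9.26% to 41.6% in the Secisbp2 knockout libraries and 13.0% to 22.7% and 9.07% to 16.9% in Secisbp2 wild type. They were 1.38% to 10.4% and 1.81% to 11.3% in the Trsp knockout libraries, below every Trsp wild type interval, whose lowest bound was 12.7%.

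**Figure D2:**
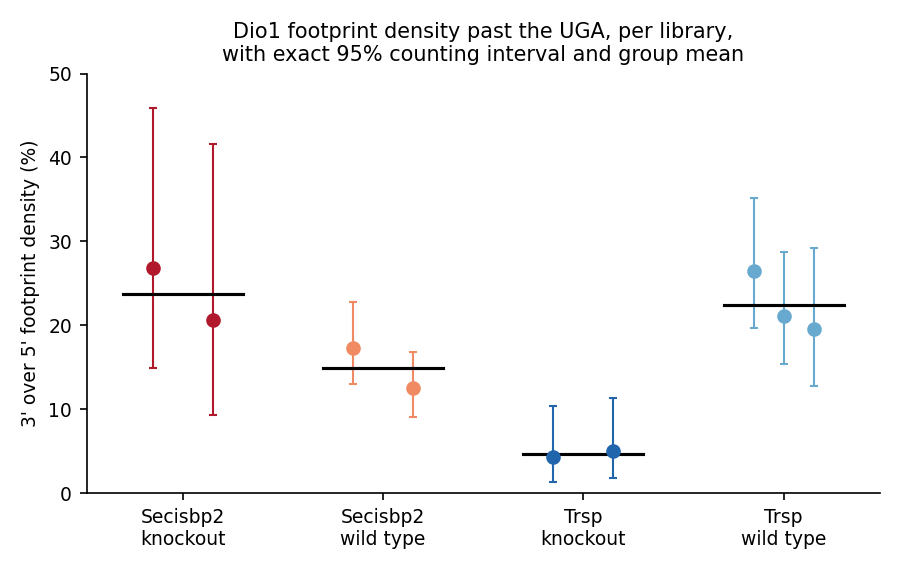
Dio1 footprint density 3' of the UGA as a percent of that 5' of it in each footprint library (points), with the exact 95% interval from the reads (bars) and the group mean (lines). Both Trsp knockout libraries lie near 5% and all other libraries between 12.5% and 26.8%.

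Tested as the log2 ratio per library, the Dio1 ratio fell by 1.99 in Trsp knockout livers (SE 0.27, limma adjusted p = 0.000548), where 75% of the 12 genes were called lower and the median was -1.82. In Secisbp2 knockout livers its change was 0.90 (SE 0.30, 95% interval 0.19 to 1.62, limma adjusted p = 0.0597) and did not pass. It was the highest of the 12 genes, whose median was -0.65 and of which 25% were called lower. The test was close to its threshold: the pseudocount of 0.5 RPKM lifts low 3' values more than high 5' values, and the change was 0.73 with a pseudocount of 0.1 (adjusted p = 0.135) and 1.06 with 1 (adjusted p = 0.0364). Against the Trsp wild type, whose ratio averaged 22.4% ± 3.61 (SD, n = 3), the Secisbp2 knockout value of 23.7% ± 4.36 (SD, n = 2) gave 0.33 (adjusted p = 0.353).

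The knockout effects on the Dio1 ratio differed by 2.89 (SE 0.41, limma adjusted p = 0.00120), where 33.3% of genes were called in either direction. With all libraries at the same median over the selenoproteins this difference was 1.57 (adjusted p = 0.0813), the Trsp change turned to 0.32 (adjusted p = 0.542), and the Secisbp2 change was 1.89 and was called higher (adjusted p = 0.0168). By level, Dio1 had a low ratio among the 12 selenoproteins tested also in wild type livers. It stood in place 11 of 12 from the highest in Secisbp2 wild type livers, at 14.9% against a median of 51.1%, and in place 12 of 12 in Trsp wild type livers, at 22.4% against a median of 56.9%. In the knockouts it stood in place 7 of 12 without Secisbp2, at 23.7% against a median of 30.1%, and 9 of 12 without Trsp, at 4.68% against a median of 10.9%. Gpx4 overlapped Dio1 in both wild types, at 18.36% and 13.45% in Secisbp2 and 23.1%, 30.2% and 17.8% in Trsp wild type libraries. A library without reads 5' of the UGA of a gene was left out of that gene's mean ratio. The highest mean ratios were 496% for Selenoi in Secisbp2 wild type and 222% for Gpx3 in Trsp wild type livers. Levels compared between genes are therefore not shares of ribosomes that passed the UGA.

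Footprints 5' of the UGA per mRNA, from the group means, were 0.905 in Secisbp2 knockout livers against 1.70 in Secisbp2 wild type livers, and 1.06 in Trsp knockout livers against 0.942 in Trsp wild type livers. Secisbp2 wild type had the highest of these quotients, since its Dio1 mRNA was lower than in Trsp wild type livers while its footprints 5' of the UGA were close. The difference in this quotient between the wild types was not tested. In a joint fit of both assays the change in this efficiency was -0.87 without Secisbp2 (SE 0.40, 95% interval -1.73 to -0.02, limma adjusted p = 0.185) and 0.17 without Trsp (SE 0.36, 95% interval -0.62 to 0.95, limma adjusted p = 0.864). Neither passed, nor did their difference of -1.04 (SE 0.54, limma adjusted p = 0.214). The limma calls over 20 genes were 5% lower without Secisbp2, 10% lower without Trsp and 0 for the difference, where 5 genes had an unadjusted p under 0.05. With the Trsp wild type as control the Secisbp2 value was -0.01 (adjusted p = 0.984).

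**Figure D3:**
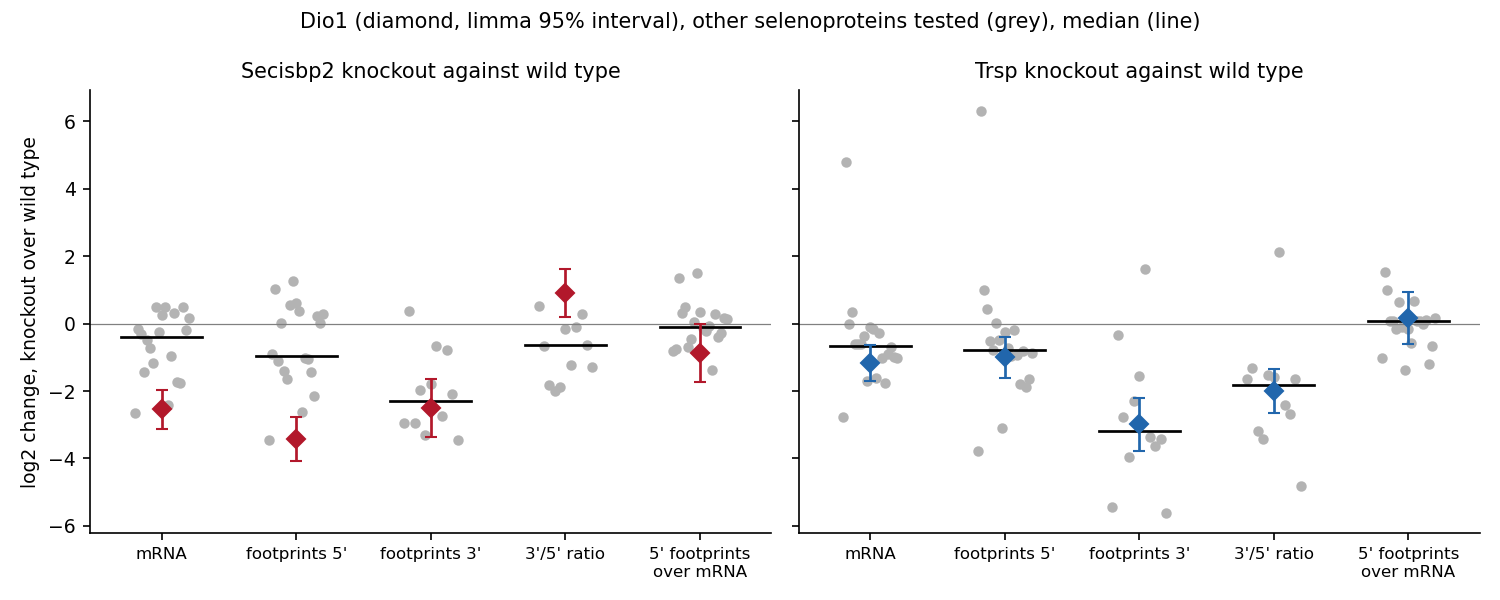
Log2 change of Dio1 (diamonds, with the 95% interval of the limma fit), of the other selenoproteins tested (grey) and their median (lines), knockout over wild type, for each measure. In Secisbp2 knockout livers Dio1 lies near the bottom for mRNA and 5' footprints and at the top for the 3'/5' ratio, and in Trsp knockout livers it lies closer to the median in each measure.

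The genes with values most like those of Dio1 were the same in both tables where likeness was measured, Sephs2, Selenop and Selenof. Likeness was the root mean square difference of log2(RPKM + 0.5) over 9 libraries after each gene's own mean was taken off, with no test. For mRNA the distance was 0.304 for Sephs2, the enzyme that makes the selenium donor for selenocysteine, 0.551 for Selenop, the selenium carrier of plasma, and 0.781 for Selenof, of the endoplasmic reticulum, against a median of 1.24 over 19 genes. For footprints 5' of the UGA it was 0.474 for Selenop, 0.496 for Sephs2 and 0.779 for Selenof, against a median of 1.49. The libraries share genotype, depth and scaling across genes.

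Sephs2 followed Dio1 most closely in mRNA, at 58.1 ± 21.7 RPKM in Secisbp2 knockout against 190 ± 10.5 RPKM in Secisbp2 wild type livers, and 242 ± 32.1 RPKM in Trsp knockout (SD, n = 2 each) against 450 ± 15.1 RPKM in Trsp wild type livers (SD, n = 3). As for Dio1, Trsp wild type was the highest and Secisbp2 knockout the lowest, though here Trsp knockout lay above Secisbp2 wild type without overlap. Selenop mRNA had the same order of group means as Dio1, but its middle groups lay far apart, at 684 ± 16.1 RPKM in Trsp knockout and 1744 ± 247 RPKM in Secisbp2 wild type livers (SD, n = 2 each). Its wild types overlapped, at 1569 to 1918 RPKM in Secisbp2 and 1854 to 2265 RPKM in Trsp wild type livers, whereas those of Dio1 did not. The 3'/5' ratio of Sephs2 fell by 1.29 without Secisbp2 (SE 0.37, limma adjusted p = 0.0476), against a change of 0.90 for Dio1 that did not pass, and the difference between these genes was not tested.

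**Figure D4:**
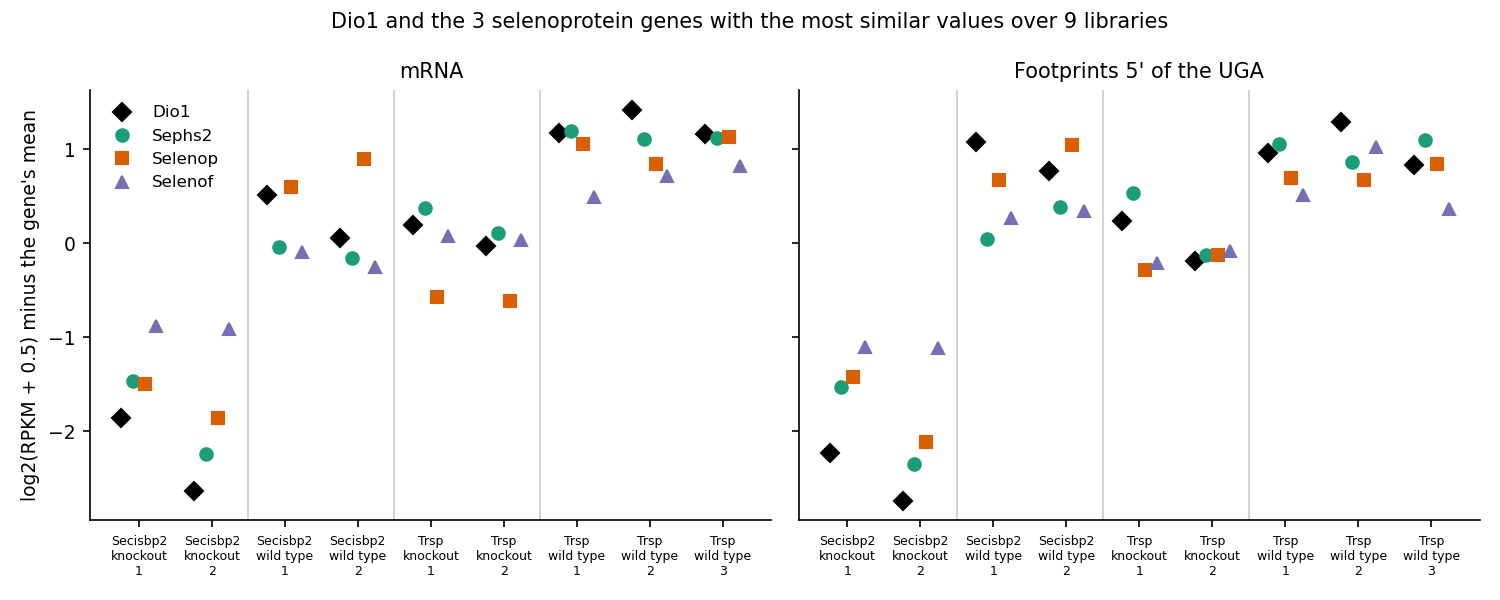
log2(RPKM + 0.5) of Dio1 and of the 3 genes most like it, each minus its own mean over the 9 libraries, for mRNA and footprints 5' of the UGA. In both panels all 4 genes are lowest in the Secisbp2 knockout libraries.

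Selenoproteins are often ordered by how their mRNA follows the selenium supply. All 4 mRNAs listed as following it (Gpx1, Selenow, Selenoh and Msrb1) were lower in Secisbp2 knockout livers, with a median of -1.45, and all 4 in Trsp knockout livers, with a median of -1.18. Over all 20 genes 50% and 70% were called lower, with medians of -0.39 and -0.66. Gpx1, the cytosolic glutathione peroxidase, fell by 2.64 without Secisbp2 (SE 0.14, limma adjusted p = 3.82e-07) and by 2.76 without Trsp (SE 0.12, limma adjusted p = 1.23e-07). Dio1 mRNA, at -2.54 and -1.17, was close to Gpx1 in the Secisbp2 comparison alone, and the difference between these genes was not tested.

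Of the 4 housekeeping selenoproteins (Gpx4, Txnrd1, Txnrd2 and Selenoi), 1 was lower, 2 were higher and 1 did not pass in Secisbp2 knockout mRNA, with a median of 0.16, where 50% of all genes tested were called lower and 20% higher. In Trsp knockout mRNA 3 were lower and 1 did not pass, with a median of -0.54, where 70% of all genes were called lower and 5% higher, so this count is close to the background. Gpx4, the phospholipid hydroperoxidase, was the member lower without Secisbp2 (-1.44, SE 0.17, limma adjusted p = 6.28e-05) and the member that did not pass without Trsp (0.35, SE 0.15, limma adjusted p = 0.0631). Dio1 is a membrane protein, and of the other membrane selenoproteins 4 of 5 were tested (Selenok, Selenos, Selenoi and Selenot). In Secisbp2 knockout mRNA 1 of these was lower, 2 were higher and 1 did not pass, with a median of 0.04, against 50% called lower and 20% higher over all genes. In Trsp knockout mRNA 3 were lower and 1 did not pass, with a median of -0.70, close to the 70% called lower and the median of -0.66 over all genes.

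In footprints 5' of the UGA, 2 of the 4 genes that follow the selenium supply were lower in each knockout, with medians of -1.54 without Secisbp2 and -1.15 without Trsp. This is close to the 45% and 55% called lower over all genes, whose medians were -0.96 and -0.79. Of the housekeeping genes 1 was lower without Secisbp2 and 2 were lower without Trsp, with medians of 0.11 and -1.07. Of the other membrane genes 2 were lower in each knockout, with medians of -0.23 without Secisbp2 and -0.71 without Trsp. For the 3'/5' ratio the tested members numbered 4, 2 and 2 in these lists, and of them 0, 1 and 0 were lower without Secisbp2 and 2, 1 and 1 without Trsp. Over all 12 genes 25% were called lower without Secisbp2 and 75% without Trsp. No list exceeded the Trsp share, and the housekeeping list, with 1 of 2, exceeded the Secisbp2 share. Lists of 2 or 4 tested genes are too small for such shares to be compared. Of 18 genes of thyroid hormone transport, reception and response looked for, among them Thrb, the main thyroid hormone receptor of liver, and Thrsp, a target of it, 0 were in the tables.

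Dio2 mRNA, in a window of 5843 nt, was under 0.21 RPKM in every library. It had 22 and 22 reads in Secisbp2 knockout livers, against 1 and 20 in Secisbp2 wild type livers, and 38 and 16 reads in Trsp knockout livers, against 4, 3 and 10 in Trsp wild type livers. Per length and depth these were 0.107 and 0.103 RPKM in Secisbp2 knockout, against 0.0262 and 0.133 RPKM in Secisbp2 wild type, and 0.207 and 0.137 RPKM in Trsp knockout, against 0.0346, 0.0228 and 0.0749 RPKM in Trsp wild type. Both Trsp knockout libraries lay above all Trsp wild type libraries, whereas the Secisbp2 groups overlapped.

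Over the summed reads of a group, Dio2 mRNA was at 0.180 RPKM in Trsp knockout livers (54 reads, exact 95% Poisson interval 0.135 to 0.234) and at 0.0446 RPKM in Trsp wild type livers (17 reads, 0.026 to 0.0715). It was at 0.105 RPKM in Secisbp2 knockout livers (44 reads, 0.0764 to 0.141) and at 0.111 RPKM in Secisbp2 wild type livers (21 reads, 0.069 to 0.17). These intervals cover counting error only. Dio2 lies under the minimum of 1 RPKM and was not tested with it. With no minimum, where the pseudocount of 0.5 exceeds all its values, its change was 0.30 in Trsp knockout livers (SE 0.12, limma adjusted p = 0.0409) and 0.07 in Secisbp2 knockout livers (SE 0.13, limma adjusted p = 0.663). Dio1 mRNA exceeded Dio2 mRNA, both per length, 79.3-fold in Secisbp2 knockout, 406-fold in Secisbp2 wild type, 243-fold in Trsp knockout and 2180-fold in Trsp wild type livers.

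Dio3 mRNA, in a window of 1872 nt, had 5 and 7 reads in Secisbp2 knockout livers, against 0 and 11 in Secisbp2 wild type livers. It had 0 and 1 reads in Trsp knockout livers, against 2, 0 and 2 in Trsp wild type livers. Values of 0 allow up to 3 reads, which for these libraries is the grey tick of the plot of deiodinase mRNA. Like Dio2, Dio3 was tested only with no minimum, where the pseudocount of 0.5 exceeds all its values. Its change was then -0.03 without Secisbp2 (limma adjusted p = 0.841) and -0.05 without Trsp (limma adjusted p = 0.762). Between the wild types it was 0.18 (limma adjusted p = 0.347). From the summed reads the level was 0.0896 RPKM in Secisbp2 knockout (exact 95% Poisson interval 0.0463 to 0.156) and 0.182 RPKM in Secisbp2 wild type livers (0.091 to 0.326), and for 1 read in Trsp knockout 0.0104 RPKM (0.000263 to 0.0579) against 0.0328 RPKM in Trsp wild type livers (0.00893 to 0.084). The Secisbp2 wild type interval lay above both Trsp intervals, but it covers counting error only and all 11 reads came from replicate 2. Dio3 has an antisense neighbour, Dio3os, and the sources used here do not say whether reads were counted by strand.

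**Figure D5:**
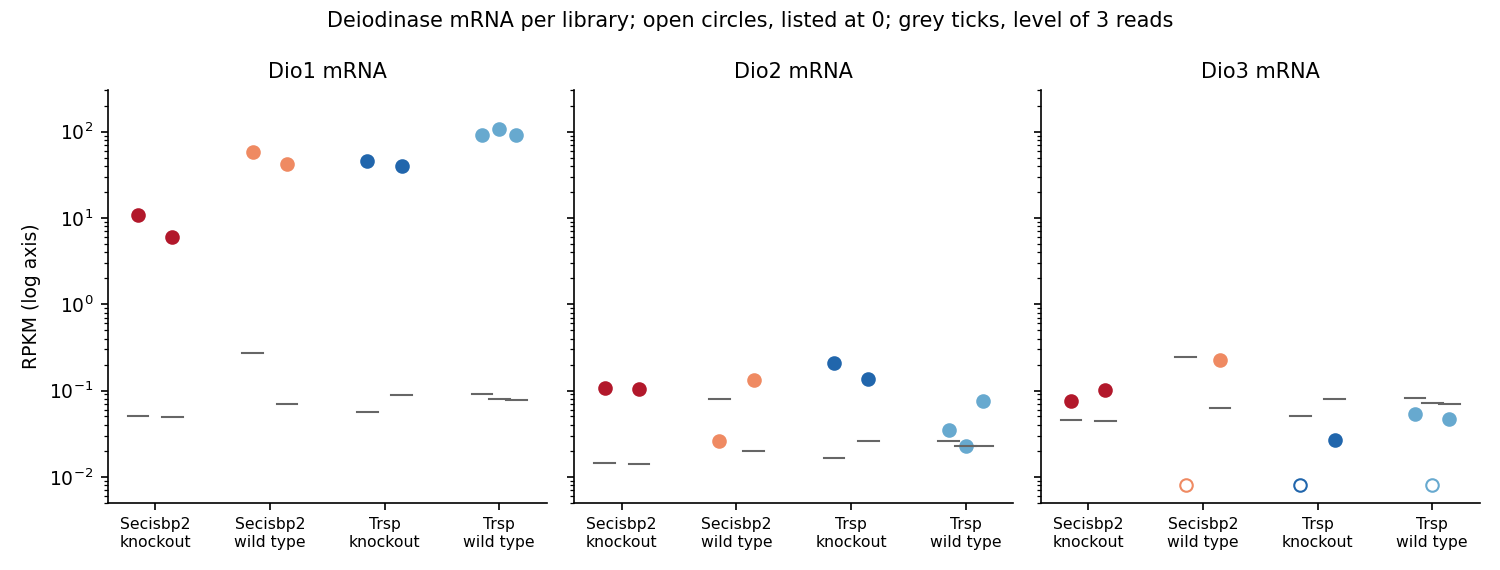
mRNA of Dio1, Dio2 and Dio3 in each RNA-seq library (points, RPKM on a log axis), with the level that 3 reads would give in that library (grey ticks). Open circles are libraries listed at 0. Dio1 lies at 6.06 to 109 RPKM, Dio2 at 0.0228 to 0.207 RPKM and Dio3 at 0 to 0.228 RPKM.

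Footprints on Dio2 and Dio3 are listed at 0 in 9 of 9 libraries, both 5' and 3' of the UGA. In the 5' table Dio2 and Dio3 are the only 2 genes at 0 throughout, and if their windows were counted, a 0 there allows up to 3 reads in a library. Of the 23 genes, 8 are listed at 0 throughout 3' of the UGA, among them thioredoxin reductases that had footprints 5' of the UGA, so a 0 there says nothing about a gene's translation.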

How the data were processed

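Whole livers were frozen and pulverized. Footprints came from RNase I digests of some 100 mg of powder after 50% sucrose, and RNA-seq fragments from polyA RNA. Both were selected at 20 to 40 nt and sequenced for 50 cycles, per the labels' protocols. Bowtie 0.12.8 and the mouse build mm9 are named in the submitters' processing notes. The authors deposited RPKM values for footprints 5' of the UGA, footprints 3' of it and RNA-seq, per the file headers. Counting, annotation and the windows around the UGA are not given in the sources used here. The labels state 3 mice per background, and nothing ties a footprint library to an RNA-seq library of the same liver.

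All 515 RPKM values above 0 came out as whole reads within 0.001 of a read, on the assumption that reads, window lengths and library totals are whole numbers. Windows and totals were chosen to make the reads whole, with the fewest reads, so this is no separate check of them. In place of a number, the 3' value of Selenof in Secisbp2 wild type replicate 1 was a date. Its serial number, 263.871, gave 521.000 reads, and neighbouring days gave 519.026 and 522.974, so it was used as the value. Current symbols came from a RefSeq gene table (11 the same, 12 by synonym). There were 0 columns of other samples. The reads carry no molecular identifiers and may repeat a molecule, so intervals and limits of 3 reads cover counting error only.

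limma 3.58.1 in R 4.3.3 was run on log2(RPKM + 0.5) for genes averaging 1 RPKM or more in the table. All groups entered the fit, p-values were two-sided and Benjamini-Hochberg adjusted over all genes tested in the table, and the threshold was 0.05. Such fold changes are too small for genes at low levels. UGA redefinition was the difference of log2(3' RPKM + 0.5) and log2(5' RPKM + 0.5) per library, and translational efficiency the assay by genotype interaction of a joint fit. The p-values measure the spread between these libraries. An exact permutation test of a single gene cannot reach 0.05 with groups of 2 and 2 or 2 and 3. The limma fits were run on simulated data. So was the recovery of reads, but with the true Dio1 windows given, so the search for those windows was not tested. Python 3.11.15 with numpy 2.4.6 was used otherwise. Alternatives were the scaling, pseudocount, minimum, groups in the fit, control group, replicate block, leaving out each library and, chosen after seeing the data, limma voom on the recovered reads.

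The genes, lists and tests were chosen with earlier results of these data known. Dio1, Dio2 and Dio3 were named always, the 3 genes most like Dio1 by root mean square difference, and list members only with a call or as Gpx1 and Gpx4. Dio2 and Dio3 footprints, all listed at 0, entered no test.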

Additional observations from a re-analysis of the deposited data

Results flagged for a closer look

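Dio1 responded differently to the knockouts by the test of the difference itself, in 3 measures. In these comparisons 70% of genes were called in either direction for mRNA, 55% for 5' footprints and 33.3% for the ratio. For Dio1 mRNA the Secisbp2 effect minus the Trsp effect was -1.37 in log2 units (SE 0.34, limma adjusted p = 0.00656), with knockout means of 8.39 RPKM without Secisbp2 and 42.9 RPKM without Trsp. For footprints 5' of the UGA it was -2.41 (SE 0.38, limma adjusted p = 0.00164), with knockout means of 7.59 and 45.5 RPKM. For the 3'/5' footprint ratio it was 2.89 (SE 0.41, limma adjusted p = 0.00120), with knockout ratios of 23.7% without Secisbp2 and 4.68% without Trsp, but 1.57 and not called with all libraries at the same median over the selenoproteins (adjusted p = 0.0813). In each of the Secisbp2 and Trsp comparisons the sign was shared by all libraries of the knockout for mRNA and 5' footprints, which lay below all libraries of their own wild type. Sephs2 (-0.85, -1.36 and 3.51) and Selenop (-0.82, -1.68 and 2.30) were called in the same directions as Dio1 in these measures. Selenof was called in none of them. The Secisbp2 knockout, Secisbp2 wild type and Trsp libraries come from different library sets. The part of the sets in these differences cannot be told apart from that of genotype and colony, and was not tested.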

How the results depend on the processing

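Over the alternatives run for Dio1, 280 values kept direction and call. With the direction kept, 8 lost the call and 3 gained it, and 6 values changed sign. Among these 6 was the Trsp ratio with all libraries at the same median, which also lost its call. The tables hold only selenoproteins, so scaling libraries to the same median over them takes out any change they share. It raised the median of all genes by 0.50 and 0.56 (mRNA), 0.68 and 0.70 (5' footprints), 2.22 and 2.98 (3' footprints) and 0.99 and 2.31 (ratio) in the Secisbp2 and Trsp comparisons. Relative to that median Dio1 was at -0.28 (Secisbp2) and -0.0097 (Trsp) for 3' footprints, -0.30 for Trsp 5' footprints and -0.61 for Trsp mRNA, none called, and the difference of the ratio effects was 1.57 and not called. The ratio was then 1.89 and called for Secisbp2 and 0.32 for Trsp, which changed sign, as did the difference of the 3' footprint effects (-0.27). Trsp mRNA was not called against the other wild type (-0.20) or pooled wild types (-0.78), where the uncalled Trsp efficiency turned to -0.70 and -0.18. The Secisbp2 ratio was called with a pseudocount of 1 (1.06) and with no minimum (0.90). The fit with no minimum takes in the 8 genes listed at 0 throughout 3' of the UGA, whose ratio holds the 5' value alone. Its Dio1 value is that of the main fit. With no minimum Dio2 mRNA, at levels under the pseudocount, gave 0.30 for Trsp (SE 0.12, limma adjusted p = 0.0409) and 0.07 for Secisbp2 (adjusted p = 0.663). Voom on the recovered reads changed 0 of 12 Dio1 calls.

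Leaving out each library gave, for Secisbp2 and Trsp, mRNA at -2.93 to -2.15 and -1.28 to -1.06, 5' footprints at -3.67 to -3.16 and -1.21 to -0.80, 3' footprints at -2.88 to -2.13 and -3.17 to -2.90, and the ratio at 0.68 to 1.13 and -2.11 to -1.86. The 5' footprint difference between wild types, -0.10 and not called, ran from -0.26 to 0.051 and turned to 0.051 without Secisbp2 wild type replicate 2 and 0.025 without Trsp wild type replicate 2. The lone call lost was Trsp 5' footprints without Trsp knockout replicate 2. Replicate numbers were not used to pair libraries in the main fits. Deviations of same-numbered knockout and wild type libraries within a measure correlated at -0.438 to 0.673. In a group of 2 libraries the deviations mirror each other, so these correlations cannot decide whether the libraries are paired. With the replicate block Dio1 changed no call in 18 of 18 results, and Trsp mRNA was -1.21 and the Trsp ratio -2.07.

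Counts of genes called lower moved with the common median to 5 of 20 (Secisbp2, main 9) and 4 of 20 (Trsp, main 11) for 5' footprints, 1 and 3 of 12 (main 9 and 10) for 3' footprints, 7 of 20 for Trsp mRNA (main 14), and 0 and 1 of 12 for the ratio (main 3 and 9). Without Trsp knockout replicate 2, 6 of 20 were called for 5' footprints. The Secisbp2 ratio count ranged from 0 to 5 over the other alternatives, and counts for efficiency from 0 to 3. Between wild types the 5' footprint count ranged from 1 to 9 and the 3' count from 0 to 4 (main 3 each), and for the difference of effects the 3' count reached 6 (main 3) and the ratio count 2 to 10 (main 4). The 10 came with no minimum, where genes listed at 0 throughout 3' of the UGA were fitted too. Dio1 3' footprints in knockouts rest on 5 to 18 reads a library, which limits their precision.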
